A study of Mus musculus with 74 samples.

Results

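The libraries described here compare CD11b-selected cells from the sciatic nerves of mice that carried the same disease transgene and differed in the marrow they had been given. They are 5 of the 74 libraries of the series, and were chosen by their labels: tissue and cell type (sciatic nerve, labelled peripheral macrophages), grafted status, disease stage (early symptomatic) and genotype of the marrow donor. All recipients were female hSOD1-G93A mice on a C57BL/6J background, which express a mutant human superoxide dismutase 1 and serve as a model of amyotrophic lateral sclerosis. Recipients of 3 libraries had been grafted at disease onset with bone marrow from hSOD1-G93A donors (G93A marrow, the baseline disease control). Recipients of the other 2 had been grafted at onset with marrow from donors transgenic for wildtype human SOD1 (WT marrow). Host cells of every mouse therefore carried the mutant transgene, in both groups. The 2 sciatic nerves of 1 mouse made 1 library, so the replicates are separate mice. The labels give neither the age of the grafted mice, nor the conditioning before the graft, nor the share of nerve cells that came from the donor. The question, from the design, was whether marrow with wildtype in place of mutant SOD1 gives a different transcriptome in nerve macrophages once symptoms have begun.

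Macrophages of a peripheral nerve come from a resident population and from blood monocytes, which derive from the marrow and can replace or join the residents. In a degenerating nerve they clear axon and myelin debris, present antigen, and release chemokines, cytokines and reactive oxygen from the phagocyte NADPH oxidase. CD11b, the integrin alpha chain encoded by Itgam, sits on macrophages and monocytes and also on neutrophils and NK cells, so beads against it do not separate these cells.

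The values are FPKM, fragment counts scaled by transcript length and sequencing depth, as the authors deposited them. The depth itself is unknown, so no counting error can be given. FPKM sums ran from 640324 to 741348 per library, and 8258 to 10059 genes lay above 1 FPKM, with the lowest number in WT-marrow library 1. Across 10299 genes, Pearson correlations on the log2(FPKM + 1) scale were 0.801, 0.772 and 0.822 between pairs of G93A-marrow libraries and 0.842 between the WT-marrow libraries. Between the groups they ran from 0.747 to 0.920, and the highest of all was between G93A-marrow library 3 and WT-marrow library 2. The first principal component held 44.6% of the variance.

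Neutrophil markers held a larger share of FPKM than macrophage markers in each of the 5 libraries, although the label is peripheral macrophages. The 16 neutrophil markers made up 4.32%, 15.2% and 31.7% of all FPKM in G93A-marrow libraries 1 to 3, and 27.2% and 19.3% in WT-marrow libraries 1 and 2, with none listed at 0 in any library. The 16 macrophage markers made up 2.09%, 2.96% and 1.13% against 1.28% and 2.42%, and 1 of them, the mannose receptor gene Mrc1, was listed at 0 in WT-marrow library 1. In G93A-marrow library 1 genes of resident nerve macrophages, a separate list, held 7.70% and so more than the neutrophil markers. Most of that share was 1 gene, Retnla, at 48069 of the list's 50474 FPKM. The other genes of the list together held less than the neutrophil markers. Itgam itself was at 276, 184.2 and 319 FPKM in the G93A-marrow and 195.9 and 243 FPKM in the WT-marrow libraries. Because of this makeup the samples are called CD11b-selected nerve libraries below. In such bulk samples, fewer cells of a type and less RNA per cell cannot be told apart.

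**Figure D1:**
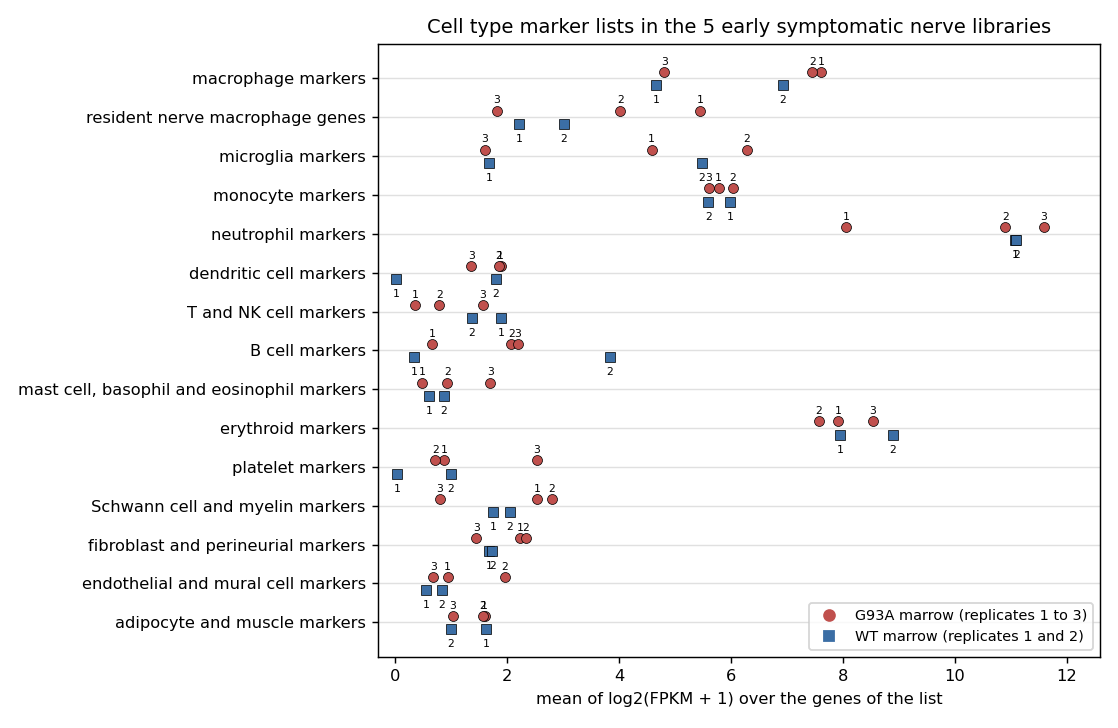
Mean of log2(FPKM + 1) over the genes of each of 15 marker lists (x axis) in the 5 libraries, with circles for G93A marrow, squares for WT marrow and the replicate number beside each point. The macrophage, resident macrophage and microglia lists spread widely inside each group, and on no marker list do the groups separate.

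The marker lists differed as much inside a group as between the groups. Mean log2(FPKM + 1) of the macrophage markers was 7.60, 7.46 and 4.81 in the G93A-marrow libraries and 4.67 and 6.93 in the WT-marrow libraries, so that G93A-marrow library 3 and WT-marrow library 1 were low together. Mean log2(FPKM + 1) of the microglia markers was low in those libraries too, at 4.58, 6.28 and 1.60 against 1.67 and 5.47. Tmem119, a microglial membrane protein gene, stood at 26.99, 233 and 3.4 FPKM with G93A marrow and 0.08 and 92.7 FPKM with WT marrow. P2ry12, the purinergic receptor of resting microglia, stood at 9.03, 90.9 and 1.65 FPKM against 0.05 and 35.8 FPKM. Both were highest in G93A-marrow library 2 and WT-marrow library 2, that is, in 1 library of each group. Of these 15 marker lists, none had scores that separated the groups.

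No gene passed the test between WT and G93A marrow. Of 10299 genes tested with limma, 0 (0%) had a Benjamini-Hochberg adjusted p under 0.05, and the lowest adjusted p was 1. At an unadjusted p under 0.05 there were 245 genes (2.38%), of which 75 (0.728%) were higher and 170 (1.65%) lower with WT marrow. The 5 libraries did not overlap between the groups for 1515 genes (14.7%), with WT marrow above for 699 (6.79%) and below for 816 (7.92%). The log2 difference, WT minus G93A marrow, had a median of -0.10 over all genes tested and lay above 0 for 4485 of them (43.5%). It was at least 1 for 565 genes (5.49%) and -1 or less for 1153 genes (11.2%). The call depended on 1 library: without WT-marrow library 2, where the remaining WT-marrow library is assumed to vary like the other groups, 2 genes passed, both lower with WT marrow, of which Trabd is given here. Trabd was at 50.7, 46.6 and 62.3 FPKM with G93A marrow and 0.3 and 43.04 FPKM with WT marrow, so that WT-marrow library 2 lay beside the G93A-marrow libraries. The number with an unadjusted p under 0.05 was 65 without WT-marrow library 1 and 811 without G93A-marrow library 3.

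The error of a single difference was large beside these values. Its SE had a median of 0.718 on the log2 scale, its 95% interval reached a median of 1.56 to either side, and the median size of the differences was 0.432. For 10054 genes the interval held 0. The median SD of log2(FPKM + 1) within a group was 0.635 for G93A marrow and 0.442 for WT marrow. At end stage it was 0.409 for G93A marrow and 0.822 for WT marrow. The SE pools the variance of all 11 grafted nerve libraries, so it also holds spread from end stage. In data simulated on this comparison, the test called 38% of 100 genes set 2 log2 units apart and 90% of 100 genes set 4 log2 units apart. The simulation changed only genes of higher level and capped the largest SDs. Its noise was independent between genes and equal in all groups, so these shares may be higher than in the real libraries. For a single gene, the smallest p that an exact two-sided rank-sum test of 2 against 3 libraries can give is 0.2. All p-values in the text are from limma over all genes unless stated otherwise, and every adjusted p for the marrow difference at this stage was 1.

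The genes of lowest unadjusted p whose libraries did not overlap were of mixed function, and 10 with WT marrow above and 9 with WT marrow below are given as values that did not pass. Tgds, which encodes a sugar-nucleotide dehydratase (chr14:118111911-118132765, minus strand), stood at 10.3, 14.99 and 17.9 FPKM with G93A marrow and 53.9 and 33.9 FPKM with WT marrow. Both WT-marrow values lay above all 3 of the others, a log2 difference of 1.54 (SE 0.44) with a 95% interval of 0.59 to 2.49. Genes of cytotoxic lymphocytes stood beside it. Prf1, the pore-forming perforin of NK and cytotoxic T cells, was listed at 0, 0 and 3.97 FPKM with G93A marrow and 11.2 and 4.94 FPKM with WT marrow, a log2 difference of 2.32 (SE 0.74). Ncr1, an activating receptor of NK cells, was listed at 0, 0 and 1.81 FPKM against 18.4 and 2.67 FPKM, a log2 difference of 2.58 (SE 0.85). In both genes the lone G93A-marrow library with signal was library 3. Lins1 had 2.72, 2.24 and 8.69 FPKM against 19.9 and 18.1 FPKM, and its log2 difference was 2.03 (SE 0.62). Glipr1 had 12.7, 13.3 and 20.3 FPKM against 44.5 and 33.9 FPKM, with a log2 difference of 1.31 (SE 0.47). Neither gene overlapped between the groups. The remaining 5 on this side were Slc16a14, the Ap4b1 and Bcl2l15 locus, Mon1a, Rnmtl1 and Rps6ka5, a stress-activated kinase, with log2 differences from 1.57 to 2.59.

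On the lower side with WT marrow stood Cxcl10, the interferon-induced chemokine that draws T and NK cells through CXCR3. Cxcl10 (chr5:92346641-92348890, minus strand) was at 9.24, 9.85 and 3.45 FPKM with G93A marrow and 0.02 and 1.16 FPKM with WT marrow, a log2 difference of -2.41 (SE 0.67) with a 95% interval of -3.87 to -0.96. All 5 values were under 10 FPKM, and both WT-marrow values lay under the lowest of the others. Selm, a selenoprotein of the endoplasmic reticulum (chr11:3514683-3517350, plus strand), was at 18.8, 14.1 and 9.47 FPKM against 0.11 and 4.24 FPKM, a log2 difference of -2.60 (SE 0.71). Mrpl1, a protein of the mitochondrial ribosome, was at 21.04, 16.7 and 11.5 FPKM against 4.68 and 2.4 FPKM, a log2 difference of -1.95 (SE 0.55). Sertad1, a regulator of cyclin-dependent kinase 4, was at 50.9, 34.9 and 26.5 FPKM against 10.6 and 14.8 FPKM, a log2 difference of -1.45 (SE 0.45). The groups did not overlap in any of these 4 genes. Tnfaip8l1 and Tmem53 were close to 0 in both WT-marrow libraries, at 0.03 and 0.03 FPKM and at 0.07 and 0.06 FPKM, against 4.21, 5.89 and 5.7 FPKM and 11.6, 4.75 and 7.21 FPKM with G93A marrow. Etnk1, Tacc1 and Nek8 were also on this side, with log2 differences of -2.47, -1.77 and -2.16.

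**Figure D2:**
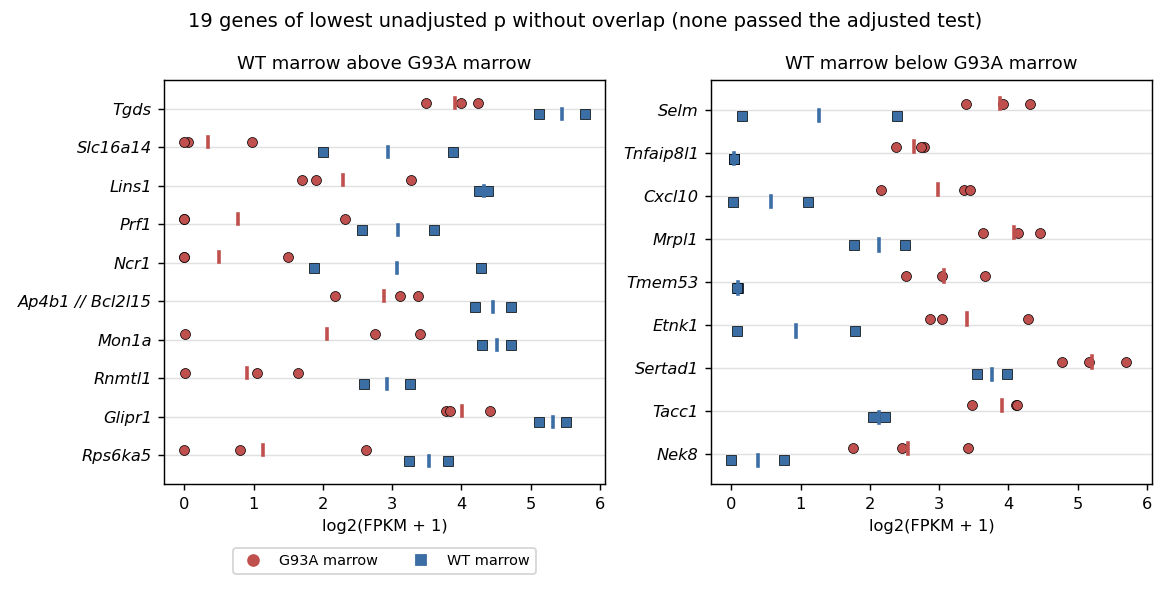
Log2(FPKM + 1) in each library for 19 genes of lowest unadjusted p without overlap between the groups, 10 with WT marrow above (left) and 9 below (right), with circles for G93A marrow, squares for WT marrow and a bar at each group's mean. The genes were picked for this separation, no gene passed the adjusted test, and in Slc16a14, Prf1, Ncr1, Mon1a, Rnmtl1 and Rps6ka5 at least 1 G93A-marrow library is listed at or near 0.

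Macrophage markers differed in how far they varied between mice of 1 group. Lyz2, a lysozyme gene of myeloid cells that shares 1 feature of the table with Lyz1, was at 6613, 4283 and 4953 FPKM with G93A marrow and 6084 and 6176 FPKM with WT marrow. Tyrobp, the signalling adaptor shared by myeloid cells, was at 2264, 3682 and 2702 FPKM with G93A marrow and 2877 and 3021 FPKM with WT marrow. Its log2 difference was 0.06 (SE 0.39), with a 95% interval of -0.79 to 0.92. C1qb, a chain of complement C1q made by macrophages, spanned 1879.6, 4536 and 52.6 FPKM with G93A marrow and 56.2 and 2775 FPKM with WT marrow. Apoe, the lipid carrier of debris-laden macrophages, spanned 2493, 14966 and 211 FPKM against 415 and 10197 FPKM. In both genes G93A-marrow library 3 and WT-marrow library 1 were low and WT-marrow library 2 was high. Adgre1, which encodes the macrophage antigen F4/80, followed with 97.9, 31.2 and 10.97 FPKM against 22.3 and 52.3 FPKM. Of the 16 macrophage markers, 3 had a log2 difference above 0, 1 had libraries that did not overlap, beside 14.7% of all genes, and 0 had an unadjusted p under 0.05. Their median was -0.65, beside -0.10 over all genes, and it ran from -1.50 to 0.30 when each of the 5 libraries was left out in turn.

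Genes of resident nerve macrophages had by far their largest share of FPKM in 1 mouse. Retnla, which encodes a secreted protein of alternatively activated and resident macrophages, stood at 48069, 398 and 3.3 FPKM with G93A marrow and at 1489 and 12.8 FPKM with WT marrow. Library 1 of the G93A-marrow group was far above the other 4, and the groups overlapped over most of the range. The log2 difference was -1.60 (SE 2.91), with a 95% interval of -7.92 to 4.72. Mgl2, a lectin of the same cells, was at 264, 11.5 and 17.5 FPKM against 9.84 and 20.6 FPKM, and again only G93A-marrow library 1 stood out. Folr2, the folate receptor of resident macrophages, was at 47.3, 6.82 and 0.01 FPKM with G93A marrow and listed at 0 in both WT-marrow libraries. Mrc1, at 41.6, 0.64 and 1.45 FPKM and 0 and 0.02 FPKM, and Cbr2, at 22, 10.99 and 0.86 FPKM and 0.05 and 0 FPKM, were also higher in every G93A-marrow library than in either WT-marrow library. These 3 genes were the tested members of the list without overlap, 3 of 17 beside 14.7% of all genes. Over the 17 resident genes tested, 2 had a log2 difference above 0 and 1, Cbr2, had an unadjusted p under 0.05, as had 2.38% of all genes. The list's median was -1.15, and it was -0.22 without G93A-marrow library 1, the library whose resident genes held 7.70% of its FPKM against 0.0178% to 0.248% in the others. Retnla alone was 48069 of the 50474 FPKM behind that 7.70%.

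All 16 neutrophil markers had a log2 difference above 0, from 0.53 to 1.78, beside 43.5% of all genes. None of the 16 passed the test or had an unadjusted p under 0.05. S100a8, a subunit of the calprotectin of neutrophils, was at 8355, 30866 and 71623 FPKM with G93A marrow and 65218 and 35602 FPKM with WT marrow, a log2 difference of 0.87 (SE 0.86). The highest value of all belonged to G93A-marrow library 3 and the lowest to G93A-marrow library 1, so the groups overlapped. Camp, an antimicrobial peptide of neutrophil granules, was at 2287, 7415 and 34896 FPKM against 21716 and 14740 FPKM, a log2 difference of 1.09 (SE 0.90). Mmp8, the neutrophil collagenase, was the 1 marker of 16 without overlap, beside 14.7% of all genes. It was at 408, 2055 and 1770.5 FPKM against 3071 and 2086 FPKM, with a log2 difference of 1.15 (SE 0.66). The list's median was 0.86, and 0.13 without G93A-marrow library 1. Monocyte markers had no common direction: 7 of 12 were above 0 and their median was 0.09. Ccr2, the receptor with which monocytes leave the marrow, was at 506, 109.5 and 32.3 FPKM against 43.04 and 100.7 FPKM.

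Markers of lymphoid cells varied from mouse to mouse. Of the 8 T and NK cell markers tested, 6 had a log2 difference above 0, with a median of 1.29, and Ncr1 and Lck were the 2 with an unadjusted p under 0.05 and without overlap, beside 2.38% and 14.7% of all genes. That median was 0.69 without G93A-marrow library 1 and 0.63 with a term for each library's neutrophil marker score. The granzyme gene Gzma was listed at 0, 0 and 8.24 FPKM with G93A marrow and at 32.1 and 5.18 FPKM with WT marrow, a log2 difference of 2.77 (SE 1.34). Lck, the kinase of T cell receptor signalling that NK cells also express, was at 0, 0.02 and 2.44 FPKM against 14.3 and 4.07 FPKM. Of the T cell receptor complex, Cd3e was listed at 0 in all libraries but G93A-marrow library 3 (0.21 FPKM). The summed level of the 14 markers in the table was 7.27, 142.5 and 181.5 FPKM with G93A marrow and 199.97 and 98.02 FPKM with WT marrow. Most of that sum, in all libraries but G93A-marrow library 1, was Nkg7, a granule protein gene of NK and cytotoxic T cells, at 0.04, 136.8 and 157.4 FPKM against 122.6 and 76.3 FPKM with overlap. Cd79a, a chain of the B cell receptor, was at 1.06, 12.5 and 29.98 FPKM against 0 and 82.3 FPKM, which puts the highest and the lowest value inside the WT-marrow group. Cd209a, a lectin of monocyte-derived dendritic cells, was at 78.6, 72.2 and 19.1 FPKM against 0 and 38.3 FPKM, with a log2 difference of -2.97 (SE 1.29). WT-marrow library 1 had 4 of 10 dendritic cell markers listed at 0.

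Blood and nerve genes were present in every library. The 9 erythroid markers had a median log2 difference of 0.62, from 0.43 to 0.95 when each library was left out in turn, and held 2.58% to 3.99% of FPKM with G93A marrow and 5.22% and 4.41% with WT marrow. These shares did not overlap between the groups, while the list's mean log2(FPKM + 1) did. Of the 9 markers, 3 had no overlap, all with WT marrow above, beside 14.7% of all genes in either direction. Hba-a1, an alpha globin, was at 7659, 8173 and 14400 FPKM against 19049.8 and 14105 FPKM, with overlap. Mbp, a myelin protein gene, was at 299.7, 331 and 8.06 FPKM against 134.7 and 197.3 FPKM, with G93A-marrow library 3 the lowest. The 10 Schwann cell and myelin markers tested had a median of 0.11. With a term for each library's neutrophil marker score 0 genes passed the test and 154 had an unadjusted p under 0.05, and with a term for its Schwann cell and myelin marker score these numbers were 0 and 198.

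List members given below by level alone, beyond the 3 most abundant of their list, were named after their values were seen. Redox genes come first among the functional groups, since the transgene is a superoxide dismutase. Mouse Sod1, the endogenous gene (chr16:90220742-90226331, plus strand), was at 27.9, 33.2 and 10.6 FPKM with G93A marrow and 18.9 and 11.4 FPKM with WT marrow. The groups overlapped, and the log2 difference was -0.52 (SE 0.60) with a 95% interval of -1.82 to 0.77. The human transgene is not analysed here, so the donor genotype has no check in these values. Cybb, the catalytic gp91phox subunit of the phagocyte NADPH oxidase, was at 285, 391 and 705 FPKM against 526 and 535 FPKM, a log2 difference of 0.31 (SE 0.42). Both WT-marrow values lay inside the G93A-marrow range. Ncf4, its cytosolic p40phox subunit, was at 245, 555 and 702 FPKM against 769 and 515 FPKM, a log2 difference of 0.46 (SE 0.47). Rac2, the GTPase that activates the oxidase, was at 706, 1193 and 2641 FPKM against 2259 and 1561 FPKM. Of the 8 oxidase genes tested, 7 had a difference above 0 and none an unadjusted p under 0.05, with a median of 0.30. That median was 0.01 without G93A-marrow library 1 and -0.04 with a term for each library's neutrophil marker score.

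Among the antioxidant enzymes and Nrf2 targets, 11 of 22 had a log2 difference above 0 and the median was -0.02. Gpx1, the cytosolic glutathione peroxidase, was at 1737, 927 and 1292 FPKM with G93A marrow and 1179 and 1139.6 FPKM with WT marrow, a log2 difference of -0.14 (SE 0.37). The WT-marrow values lay in the middle of the others. Prdx5, a peroxiredoxin, was at 355, 729 and 1294 FPKM against 1377 and 798 FPKM, a log2 difference of 0.59 (SE 0.50) with overlap. Gclm, the modifier subunit of the enzyme that starts glutathione synthesis, was at 38.8, 32.2 and 41.4 FPKM against 57.5 and 64.9 FPKM, and Keap1, which holds Nrf2 in check, at 20.9, 24.97 and 16.6 FPKM against 14.2 and 13.3 FPKM. Neither of these last 2 overlapped between the groups, and neither had an unadjusted p under 0.05. Of the 22 genes tested, 1 had no overlap with WT marrow above and 2 with WT marrow below. Over all genes, 14.7% had no overlap in either direction.

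Chemokines had the lowest median of the lists, -1.48 over 16 genes tested, with 1 gene above 0. That median ran from -2.51 to -0.68 when each of the 5 libraries was left out in turn. Ccl6, the most abundant of them, was at 4359.9, 883 and 629 FPKM with G93A marrow and 1087 and 746 FPKM with WT marrow, with overlap. Pf4, the platelet factor that macrophages also make, was at 125.6, 49.8 and 17.1 FPKM against 0 and 30.9 FPKM, a log2 difference of -3.11 (SE 1.55). WT-marrow library 1 had 9 of the 22 chemokine genes in the table listed at 0, and WT-marrow library 2 had 6, against 4, 3 and 2 with G93A marrow. Ccl7, a ligand of Ccr2, was at 1.65, 15.8 and 0.44 FPKM and listed at 0 in both WT-marrow libraries. Cxcl10 and Ccl7 were the 2 chemokines without overlap, and Cxcl10 was the 1 with an unadjusted p under 0.05. Over the 16 genes tested these counts stand beside 14.7% and 2.38% of all genes.

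Inflammatory cytokines and their NF-kB feedback genes had a median log2 difference of 0.14, with 11 of 18 above 0. Il1b, the pyrogenic cytokine of activated myeloid cells, was at 59.01, 58.9 and 106.2 FPKM against 86.8 and 176.9 FPKM, a log2 difference of 0.78 (SE 0.47) with overlap. Tnf was at 2.79, 10.98 and 9.55 FPKM against 7.33 and 7.62 FPKM, inside 1 range. Il1r2, the decoy receptor for interleukin 1, was at 28.2, 167.1 and 124.9 FPKM against 183.7 and 89.8 FPKM. Type I interferon response genes split evenly, with 13 of 24 above 0 and a median of 0.10. Rtp4, an interferon-induced chaperone of membrane receptors, was at 30.2, 32.7 and 17.6 FPKM against 47.8 and 56.3 FPKM, and the helicase gene Ddx58, the RNA sensor RIG-I, at 11.8, 10.8 and 12.2 FPKM against 4.29 and 10.7 FPKM. Of the 24 genes, 4 had no overlap with WT marrow above, Rtp4 among them, and 2 with WT marrow below, Ddx58 among them. Beside these stand 14.7% of all genes without overlap in either direction.

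Of the 13 genes of antigen presentation by MHC class II, 8 were highest in G93A-marrow library 1, the mouse with the highest resident genes, 4 in G93A-marrow library 2 and 1 in WT-marrow library 2. Cd74, the invariant chain that guides class II molecules, was at 20400.3, 2852 and 719 FPKM with G93A marrow and 1765 and 1470.4 FPKM with WT marrow, a log2 difference of -1.11 (SE 1.12) with a 95% interval of -3.54 to 1.33. H2-Ab1, a class II beta chain, was at 11668, 1529.8 and 407 FPKM against 1057 and 689.9 FPKM, a log2 difference of -1.18 (SE 1.17). G93A-marrow library 1 was the highest and G93A-marrow library 3 the lowest in both genes. Ctss, the cathepsin that trims the invariant chain, was at 1697, 3445 and 121.6 FPKM against 428 and 2224 FPKM and so was highest in G93A-marrow library 2. Of the 13 class II genes, 1 had a difference above 0, with a median of -1.09, and without G93A-marrow library 1 that median was 0.11. MHC class I genes have near-identical copies that can share reads. H2-D1, a classical class I heavy chain, was at 3829, 3628 and 2655 FPKM against 3570.2 and 4175 FPKM, a log2 difference of 0.21 (SE 0.38), and 8 of the 14 class I genes tested were above 0 with a median of 0.08.

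Lysosome genes and complement and Fc receptor genes, which serve debris clearance, had their lowest summed levels in G93A-marrow library 3 and the next lowest in WT-marrow library 1, the libraries low in macrophage markers. Ctsd, the lysosomal protease cathepsin D, was at 2161, 10782 and 440.1 FPKM with G93A marrow and 490.2 and 6066 FPKM with WT marrow. The lists' median log2 differences were -0.29 for 23 lysosome genes, -0.36 for 18 complement and Fc receptor genes, -0.35 for 23 lipid-associated and disease-associated genes and -0.41 for 16 scavenger and apoptotic cell receptors. Each of these 4 medians took both signs when single libraries were left out, with a range from -1.13 to 0.34 for the lysosome genes. Spp1, the secreted osteopontin of lipid-laden macrophages, was at 214, 1722 and 30.1 FPKM against 21.4 and 659 FPKM, a log2 difference of -0.89 (SE 2.30) with a range inside each group wider than the gap between them. Grn, the lysosomal growth factor progranulin, was at 714, 679.5 and 279 FPKM against 220.2 and 652 FPKM.

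Cell cycle genes leaned the other way, with 21 of 24 above 0 and a median log2 difference of 0.78. Rrm2, a ribonucleotide reductase subunit of S phase, was at 32.1, 94.4 and 154.6 FPKM against 122.6 and 144.8 FPKM, a log2 difference of 0.77 (SE 0.55) with overlap. Bub1, a kinase of the spindle checkpoint, was at 1.25, 6.02 and 11.9 FPKM against 15.7 and 14.8 FPKM without overlap. Of the 24 genes, 2 had no overlap with WT marrow above, Bub1 among them, and 1 with WT marrow below. Over all genes, 14.7% had no overlap in either direction. Mean log2(FPKM + 1) of the 24 genes was 4.07, 4.83 and 5.98 in the G93A-marrow libraries and 5.62 and 5.71 in the WT-marrow libraries, while neutrophil markers held 4.32%, 15.2% and 31.7% against 27.2% and 19.3% of FPKM. The order was the same in both measures among the G93A-marrow mice and the reverse between the WT-marrow mice. The list's median was 0.17 without G93A-marrow library 1 and 0.30 with a term for each library's neutrophil marker score.

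Genes of cytosolic ribosomal proteins were the 1 list of the 40 scored whose scores did not overlap between the groups, beside 14.7% of single genes without overlap. Their mean log2(FPKM + 1) was 6.44, 5.92 and 5.56 with G93A marrow and 5.39 and 5.53 with WT marrow, so that the gap between the nearest libraries was smaller than the spread inside the G93A-marrow group. All 20 genes had a log2 difference under 0, with a median of -0.51, and Rpl13 and Rpsa were the 2 with an unadjusted p under 0.05, beside 2.38% of all genes. Rpl13 was at 96.6, 97.96 and 61.1 FPKM against 39.99 and 48.6 FPKM. Ribosomal protein genes have many near-identical pseudogenes, so how the authors' counting divided such reads makes these levels uncertain. Rpl32 was at 390.4, 205 and 188.1 FPKM against 140.1 and 197.1 FPKM, a log2 difference of -0.57 (SE 0.38) with overlap. Without G93A-marrow library 1, the list's median was -0.24. Heat shock and chaperone genes had a median of -0.80 with 1 of 15 above 0, and that median was -0.35 without G93A-marrow library 1 and ran from -1.38 to -0.28 over the 5 libraries left out. Hspa5, the chaperone BiP of the endoplasmic reticulum, was at 512, 408 and 181.98 FPKM against 124.7 and 299.5 FPKM, a log2 difference of -0.80 (SE 0.50), and Calr, the chaperone calreticulin, at 241, 111.3 and 48.5 FPKM against 13.6 and 64.5 FPKM was the 1 member with an unadjusted p under 0.05. Oxidative phosphorylation genes had a median of -0.22 with 2 of 26 above 0, from -0.35 to -0.01 with a library left out, and glycolysis and hypoxia genes a median of -0.08.

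Cholesterol synthesis, repair, matrix and 5 further lists given here had medians under 0, as had all genes together at -0.10, and none of their genes was at an unadjusted p under 0.05. Of their tested genes, 6 of 17 for cholesterol synthesis, 3 of 11 for trophic and repair factors and 5 of 14 for matrix proteases and inhibitors had a log2 difference above 0. Msmo1, a sterol demethylase, was at 37.6, 32.3 and 47.2 FPKM against 52.1 and 57.7 FPKM, a log2 difference of 0.50 (SE 1.30) without overlap, while the median of the 17 genes of its list was -0.33. Of those 17 genes, Msmo1 was the 1 without overlap with WT marrow above, and 3 had no overlap with WT marrow below. Over all genes, 14.7% had no overlap in either direction. Trophic and repair factors had a median of -0.36 over 11 genes, matrix proteases and their inhibitors -0.15 over 14, alternative activation genes -0.77 over 14 and iron and heme handling genes -0.26 over 16. Immediate early and stress genes had a median of -0.41 over 15 genes, toll-like receptors and their co-receptors -0.19 over 15, and leukocyte integrins and adhesion genes -0.21 over 17. The median of alternative activation genes was -0.15 without G93A-marrow library 1. Of the 39 lists with a median, 24 took both signs when single libraries were left out.

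**Figure D3:**
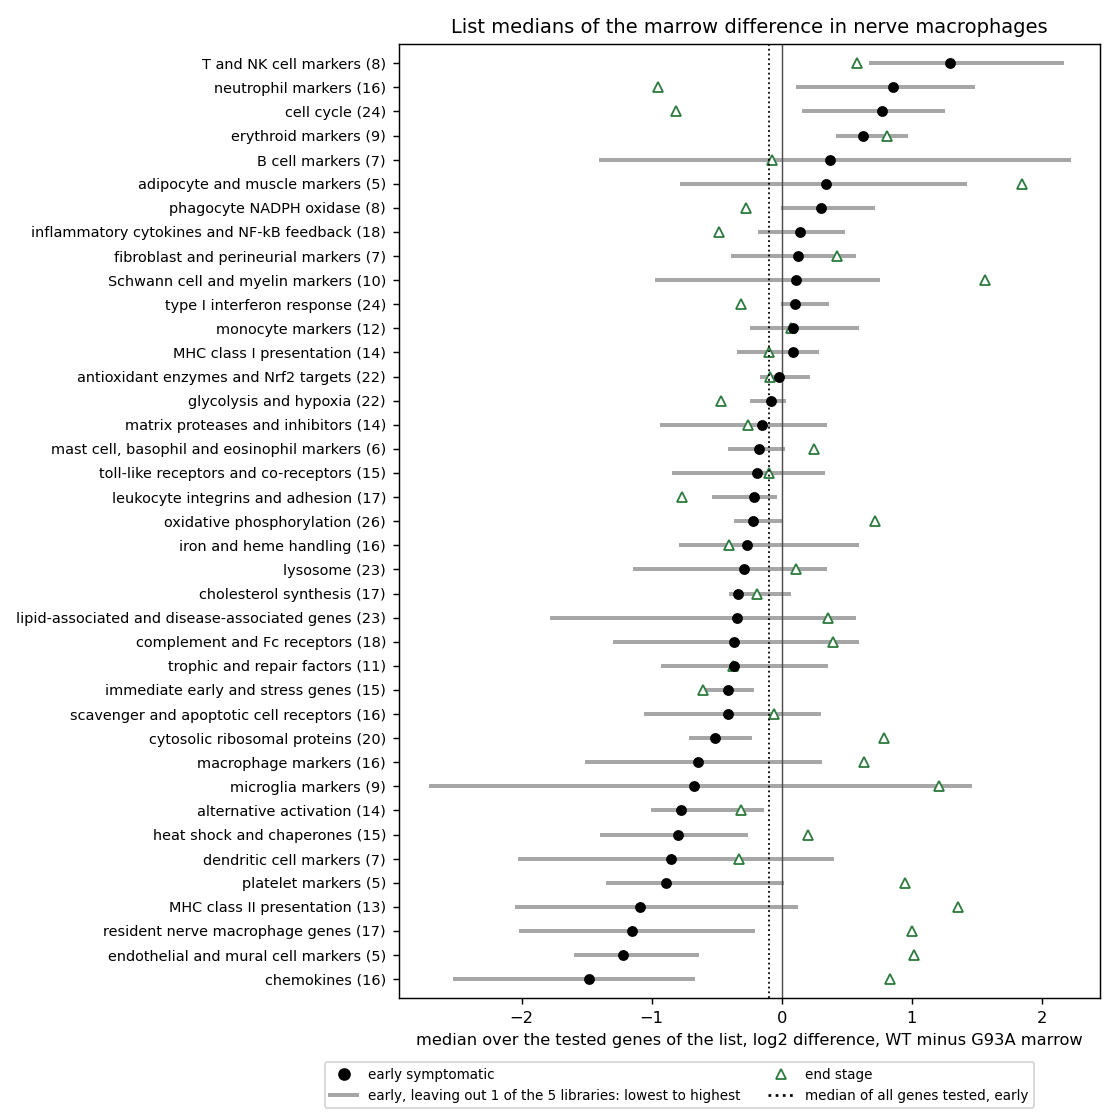
Median log2 difference, WT minus G93A marrow, over the tested genes of 39 lists (number tested in brackets): dots for early symptoms, grey bars for the range when each of the 5 libraries is left out, triangles for end stage, and a dotted line at the early median of all genes. Macrophage, class II and resident macrophage lists lie under 0 early and above 0 at end stage, though the early bars of the first 2 reach past 0, neutrophil and cell cycle lists lie the other way, and no gene passed the test at either stage.

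At end stage the same transplant design was sampled in other recipients, 3 with G93A marrow and 3 with WT marrow, and the marrow difference was compared with the one in early symptoms. No gene had a marrow difference that differed between the stages at an adjusted p under 0.05 (0 of 10299, lowest adjusted p = 0.560, limma), and 912 genes (8.86%) had an unadjusted p under 0.05, with a higher difference early for 525 (5.1%) and a lower one for 387 (3.76%). Within end stage, 0 genes passed and 1588 (15.4%) had an unadjusted p under 0.05, 501 (4.86%) higher and 1087 (10.6%) lower with WT marrow. Across 10299 genes the marrow differences of the stages had a Pearson correlation of -0.115 and a Spearman correlation of -0.118, as a description over genes, which are not independent. The sign was the same for 46.1% of all genes.

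Retnla had opposite signs at the stages, but its early log2 difference of -1.60 was 1.79 without G93A-marrow library 1, 1.78 without WT-marrow library 2 and 1.27 with a term for each library's neutrophil marker score. At end stage it was at 4.48, 2.6 and 14.3 FPKM with G93A marrow and 7279, 435 and 3336 FPKM with WT marrow, a log2 difference of 8.36 (SE 2.60) without overlap. The difference between the stages was -9.96 (SE 3.90), at an adjusted p of 0.560. Pf4 was at 0.08, 8.69 and 48.7 FPKM and 100.2, 113.04 and 357 FPKM at end stage, with a difference between the stages of -7.43 (SE 2.08) at the same adjusted p. H2-Ab1 was at 1058, 391 and 384 FPKM against 6556, 675 and 3229 FPKM there, and mouse Sod1 at 14.3, 9.26 and 17.1 FPKM against 64.5, 21.6 and 27.2 FPKM. For Sod1 the difference between the stages was -1.82 (SE 0.80), again with an adjusted p of 0.560. Cxcl10 kept its sign, at 2.15, 0.49 and 0.83 FPKM against 0, 0 and 0.05 FPKM, with 2.15 FPKM the highest of the 6. Mrpl1 was the gene with the lowest unadjusted p for the difference between the stages and is named after its values were seen. At end stage it was at 9.93, 5.37 and 3.3 FPKM with G93A marrow and 29.6, 23.1 and 28.2 FPKM with WT marrow, so that WT marrow was above there and below in early symptoms, a difference of -3.9997 (SE 0.74).

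Several list medians had opposite signs at the stages, which was not tested for the lists. The neutrophil markers had a median of 0.86 in early symptoms and -0.95 at end stage, the cell cycle genes 0.78 and -0.81, the macrophage markers -0.65 and 0.63, the class II genes -1.09 and 1.35, the resident macrophage genes -1.15 and 1.00, and the ribosomal protein genes -0.51 and 0.79. The early median of the macrophage markers reached 0.30 and that of the class II genes 0.11 when a single library was left out. Erythroid markers kept their sign, with 0.62 and 0.81, and so did T and NK cell markers, with 1.29 and 0.58. The end stage WT-marrow libraries also stood apart in their makeup. Transcripts of the mitochondrial genome held 8.84%, 4.94% and 2.84% of their FPKM, against 0.326% to 0.960% with G93A marrow at end stage and 0.287% to 1.29% in the 5 early libraries. The part of this difference in the comparison of stages was not tested.

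**Figure D4:**
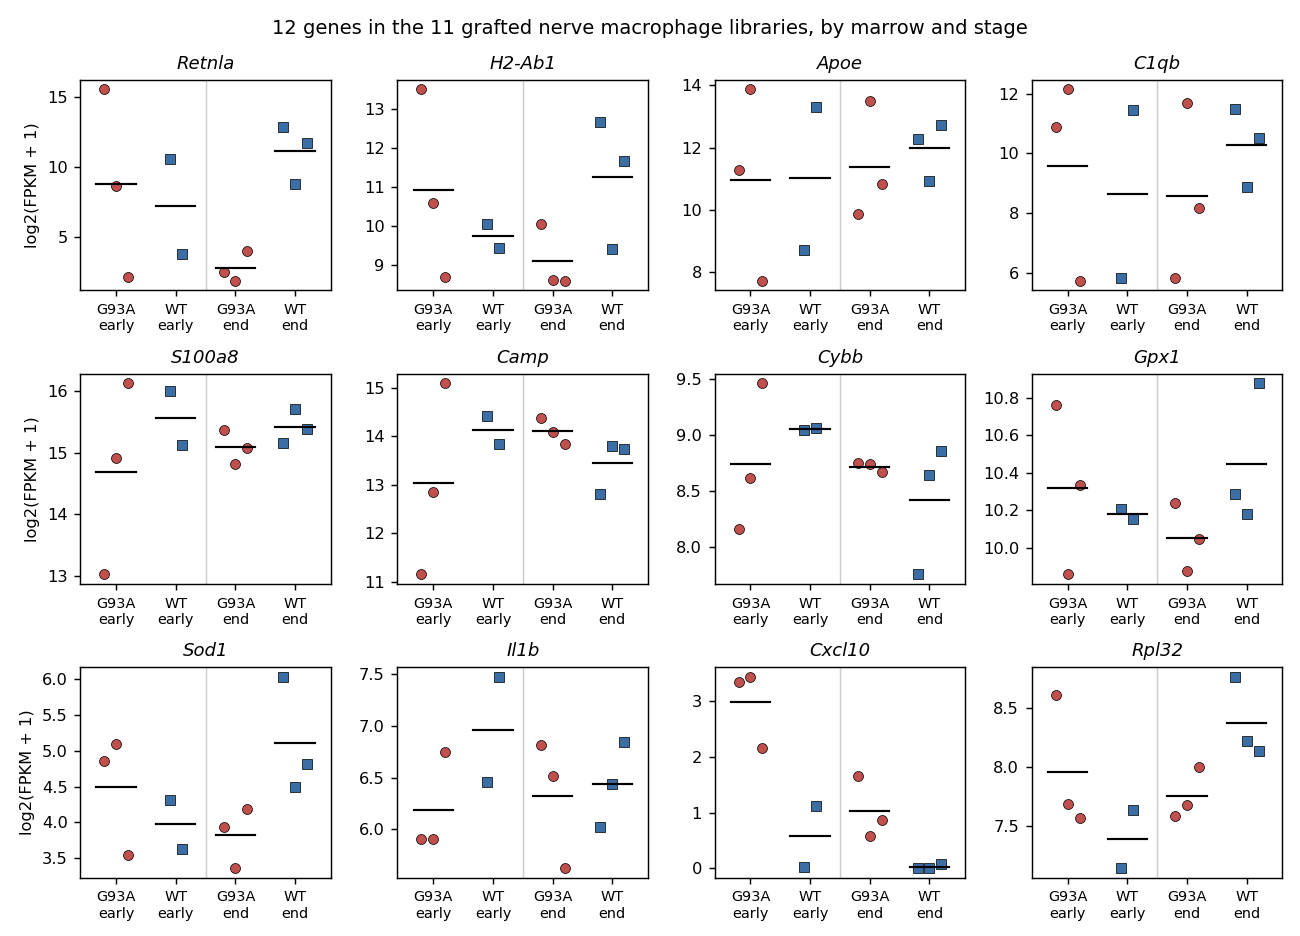
Log2(FPKM + 1) of 12 genes in the 11 grafted nerve libraries by marrow and stage, with circles for G93A marrow, squares for WT marrow, a bar at each group's mean and a separate y axis per gene that does not start at 0. Retnla spans from 3.30 to 48069 FPKM among the 3 early G93A-marrow mice, and in Cxcl10 both early WT-marrow mice lie under the 3 others.

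Spinal cord microglia of grafted mice, 3 with G93A and 3 with WT marrow in early symptoms, gave the comparison by tissue. No gene had a marrow difference that differed between nerve and spinal cord at an adjusted p under 0.05 (0 of 11247, lowest adjusted p = 0.677, limma), and 820 (7.29%) had an unadjusted p under 0.05, with a higher difference in the nerve for 196 (1.74%) and a lower one for 624 (5.55%). Without G93A-marrow nerve library 3, 2 genes passed and 1345 had an unadjusted p under 0.05. Leaving out either WT-marrow nerve library leaves 1 in that group, without spread of its own, so such fits cannot decide which genes differ. Without WT-marrow nerve library 2, the difference between the tissues was -3.80 for Usp33 and -4.33 for Rad51d. WT-marrow nerve libraries 1 and 2 were at 0.02 and 22.9 FPKM for Usp33 and at 0.02 and 21.12 FPKM for Rad51d. In both genes the library left out lay above all G93A-marrow nerve libraries. In Selm, at -4.60 in that fit, both WT-marrow nerve libraries lay below them. Within early microglia 0 genes passed and 832 (7.4%) had an unadjusted p under 0.05, 735 (6.54%) higher and 97 (0.862%) lower with WT marrow. Across 10076 genes the marrow differences of nerve and spinal cord had a Pearson correlation of -0.0387, and their sign was the same for 49.7%. Selm had the lowest unadjusted p, with a log2 difference of -2.60 in the nerve and 0.88 in microglia, and the difference between them was -3.48 (SE 0.74). Tgds was at 1.54 and -0.54, a difference of 2.08 (SE 0.57). Il1b was at 0.78 in the nerve and -1.61 in microglia, a difference of 2.39 (SE 1.02). The macrophage markers were under 0 in both, with medians of -0.65 and -0.83, while the neutrophil markers had 0.86 in the nerve and -0.87 in microglia. The cell cycle genes had 0.78 and -0.83, and the oxidase genes 0.30 and -0.74.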

How the data were processed

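RNA was sequenced from CD11b-selected sciatic nerve cells, and groups came from the labels. Grafted mice have a table of their own with 23 libraries, in which the authors deposited FPKM, per the file headers, written with decimal commas. In the submitters' processing notes stand the build mm10 and, without roles, R 3.2.5, DESeq2, SAMtools, Picard and FastQC. Aligner, counting step and use of strand are not stated there. Coordinates are those of the deposited table. Of its 58976 features, the 23297 with a gene symbol were analysed.

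Because FPKM hold no counts, limma 3.58.1 in R 4.3.3 was used (group means, then eBayes with a trend) on log2(FPKM + 1), a scale that understates changes of low genes. Genes with a mean of 1 FPKM or more across the fitted libraries were tested. A call needed an adjusted p (Benjamini-Hochberg) under 0.05. The marrow difference and its comparison with end stage used the 11 grafted nerve libraries in 4 groups, and the comparison with microglia all 23 in 8 groups. Differences are WT minus G93A marrow.

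The libraries, lists and genes were chosen with earlier results of these data known. As no gene was called, the named genes are, by direction, the 10 of lowest unadjusted p with no overlap, 5 FPKM or more in the higher group and an absolute log2 difference of at least 1, then up to 3 members of each list by mean FPKM, and mouse Sod1. Some of the genes so named are not reported here. Of the list genes, 25 matched no feature and are not analysed here. The script was tested on simulated data. Alternatives changed the pseudocount, the filter, the scaling, the library weights, the libraries fitted and the terms for marker scores or replicate number. They also left out each of the 5 early nerve libraries in turn, but no end stage or microglia library.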

Additional observations from a re-analysis of the deposited data

How the results depend on the processing

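The count of genes called between WT and G93A marrow was 0 under all alternatives that kept the 5 libraries, and ran from 0 to 2 when each was left out in turn. The number with an unadjusted p under 0.05 ran from 65 to 811 over all alternatives. For the comparison with end stage the count was 0 under every alternative, and 0 to 0 when a library was left out. For the comparison with microglia it was 1 with no filter on low values (Masp2, listed at 0 in the 5 nerve libraries), and 0 to 47 when a library was left out. Scaling every library to an equal sum moved the median of all genes from 0.07 to 0.19 for the comparison with end stage and from -0.09 to -0.23 for that with microglia. The replicate numbers are not known to pair the mice. Deviations of same-numbered libraries of the early groups had correlations of -0.07 and 0.07 across genes. With 2 WT-marrow libraries the deviations in that group mirror each other, so these values cannot decide whether the numbers pair mice. With a replicate block the count stayed 0 in all 3 comparisons, with 311, 894 and 720 genes at an unadjusted p under 0.05.

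Some differences changed sign, and the cause was not tested. With a term for the neutrophil marker score these were Cybb (-0.00168), Cd74 (0.0373), H2-Ab1 (0.0234), Tyrobp (-0.00849), Retnla (1.27) and Msmo1 (-0.15). With library quality weights it was Tyrobp (-0.0278), and with a term for the macrophage marker score, chosen after seeing the data, Spp1 (0.89). When each library was left out in turn, the log2 difference ran from -0.37 to 0.0832 for Gpx1, -2.24 to 0.17 for Cd74, -2.31 to 0.11 for H2-Ab1, -0.10 to 0.25 for Tyrobp, -4.98 to 1.79 for Retnla, -2.196 to 0.00522 for Mgl2 and -3.34 to 1.55 for Spp1. Read depth is unknown, so counting error adds to the spread between mice by an amount that cannot be given.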

Other observations

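Y-linked genes were close to 0 in the 5 early nerve libraries. Ddx3y was listed at 0 in all of them, and Eif2s3y was at 0.01 FPKM in G93A-marrow library 3 and listed at 0 in the other 4. At end stage both were listed at 0 in the 3 G93A-marrow libraries. In WT-marrow library 2 of end stage, Ddx3y was at 14.07 FPKM and Eif2s3y at 47.16 FPKM, while in WT-marrow libraries 1 and 3 they were at 0 or, for Eif2s3y in library 3, at 0.01 FPKM. The sex of the marrow donors is not given in the labels. In the early libraries the 5 sex-linked genes of the list summed to 0.21, 0.56 and 0.5 FPKM with G93A marrow. With WT marrow they summed to 0 and 1.12 FPKM. Xist, which female cells express, is 1 of these genes, so the low Y-linked values cannot tell the sex of the cells.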
